A study of Homo sapiens with 112 samples.

Results

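The response of VCaP cells to 2 µM darolutamide in the presence of androgen was compared with that to the androgen R1881 alone after 22 h. Members were the 5 libraries labelled with R1881 plus 2 µM darolutamide and the 9 libraries labelled with R1881 plus DMSO, 14 of the 55 VCaP libraries of the series. Genes were kept where 4 or more VCaP libraries held 10 or more reads each, which left 19266 of 58684 for testing. VCaP is an established human prostate cancer cell line with a TMPRSS2-ERG gene fusion, darolutamide is an antagonist of the androgen receptor used to treat prostate cancer, and R1881 is a stable androgen made by synthesis. Every group, the controls too, came from cells kept without hormone for 2 days, in 10% serum stripped with charcoal. The agents were then DMSO only (8 libraries, called DMSO below), 1 nM R1881 with DMSO (R1881), 1 nM R1881 with 500 nM darolutamide (4 libraries) or 1 nM R1881 with 2 µM darolutamide (darolutamide libraries), and the poly-A RNA of each culture was read as stranded libraries of single-end reads. The same cell line at 8 h and the LAPC4 prostate cancer line at 22 h served as further comparisons.

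Levels are given as CPM, read counts scaled to a common library size after TMM normalisation, which aligns the libraries on the bulk of their genes. CPM values are not corrected for gene length, so they compare libraries and not genes. Changes are log2 fold changes ± their standard error from edgeR's quasi-likelihood test over all VCaP libraries, and a gene was called when its Benjamini-Hochberg adjusted p over all tested genes was under 0.05. A value is lower or higher in the 5 darolutamide libraries than in the 9 R1881 libraries unless another comparison is named. In bulk RNA a smaller share of cells of a kind and less RNA per cell cannot be told apart, and scaled counts do not show changes of total RNA.

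The cell line label was checked on its markers. ERG, the transcription factor that the fusion places under androgen control in VCaP, was at 375, 371, 352, 366 and 402 CPM in the darolutamide libraries and at 971 to 1066 (median 1008) CPM in the R1881 libraries, while the LAPC4 libraries compared held 0 ERG reads. All 6 luminal epithelial markers passed the filter, and their summed level was 3179.5 to 3238 CPM with darolutamide against 5218 to 5500 CPM with R1881 alone. Of the basal markers KRT5, KRT14, KRT15 and TP63 the sum stayed at or below 1.10 CPM, and KRT5 had 0 reads. The leukocyte sum averaged 0.133 CPM with darolutamide and 0.0742 CPM with R1881, with 0 reads of CD3E and PTPRC and at most 3 of CD68 and 4 of LYZ in a compared library. The endothelial sum was 1.74 to 2.44 CPM with darolutamide and 2.02 to 3.32 CPM with R1881. The fibroblast sum was 4.90 to 5.83 CPM against 0.630 to 1.61 CPM, and LUM, which encodes the matrix proteoglycan lumican, made up most of it with darolutamide. With R1881 most of it was COL1A1, at 0.808 CPM on average. LUM was at 4.05, 4.67, 4.79, 4.66 and 4.08 CPM with darolutamide, at 0.0999 to 0.332 (median 0.189) CPM with R1881 and at 24.4 to 28.8 (median 26.8) CPM with DMSO, whereas the other defining fibroblast genes COL1A2 (0 reads), DCN and PDGFRA (at most 1 and 2 reads in a compared library) were at or near 0. COL1A1 was not called (-0.078 ± 0.29) and COL3A1 had 0 reads with R1881 and averaged 0.108 CPM with darolutamide. The part of other cell types in the results was not tested.

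The androgen receptor is a transcription factor that androgens bring to enhancers of its target genes. In luminal prostate cells these targets include the kallikrein proteases, the machinery of secretion and the synthesis of lipids, and androgen also lowers a set of genes. The cell cycle is linked to androgen in more than one direction in such cells, since strong androgen signalling can slow their division. Antagonists of the darolutamide type bind the receptor in place of the hormone and keep it from activating transcription.

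Across the table, 12896 of 19266 genes (66.9%) were called, 6958 of them higher (36.1%) and 5938 lower (30.8%) with darolutamide. Of these, 1799 genes (9.34%) were higher and 1224 (6.35%) lower by more than 2-fold. The median absolute log2 fold change of the called genes was 0.58 and the median log2 fold change over all tested genes was 0.058. The darolutamide libraries did not overlap with the R1881 libraries in 8384 genes (43.5%), lying below them in 3976 (20.6%) and above them in 4408 (22.9%).

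**Figure D1:**
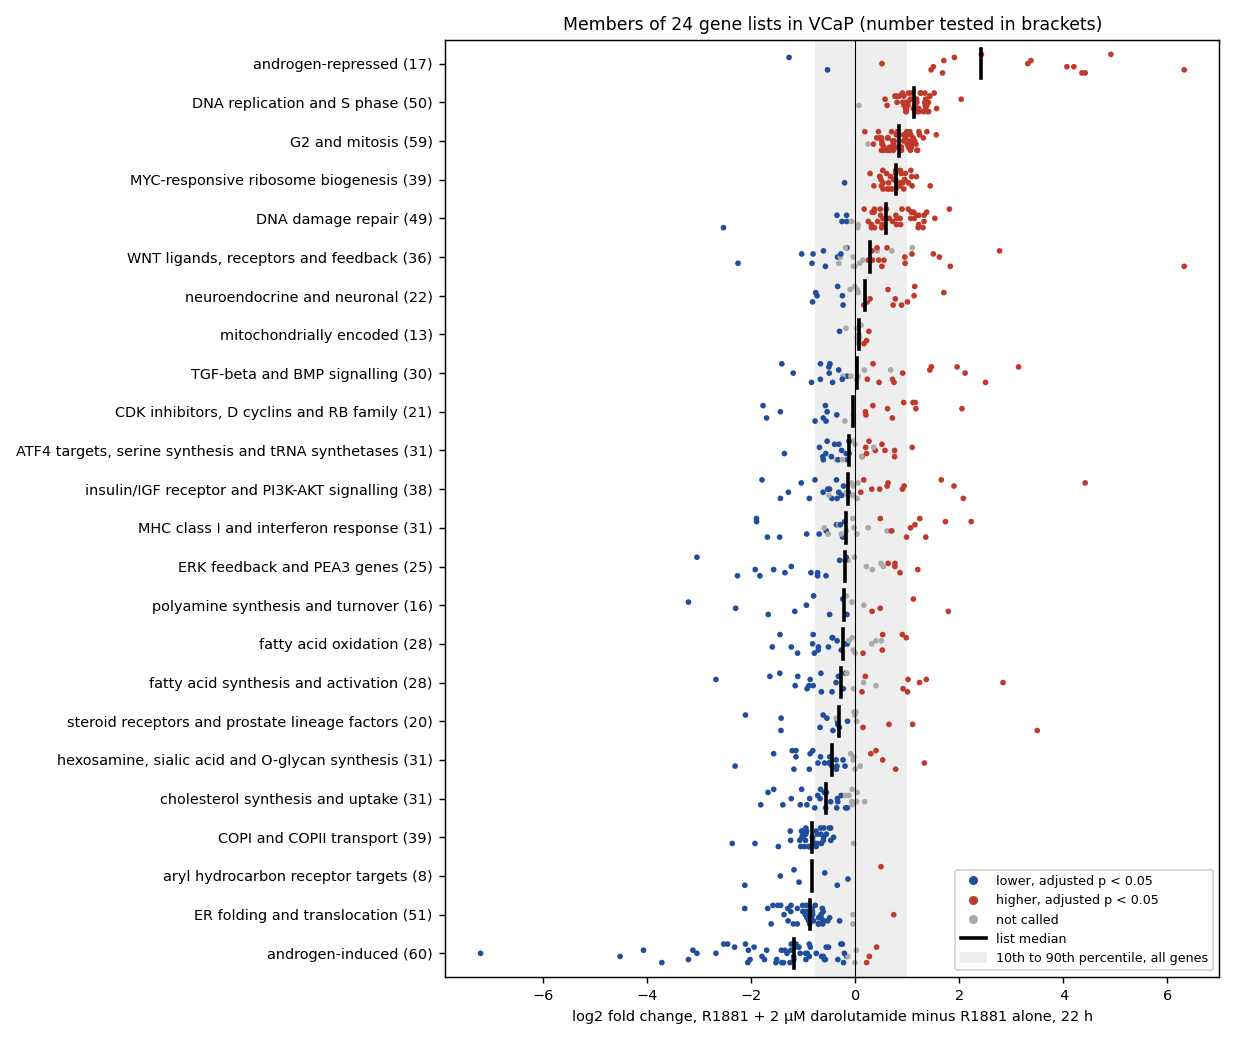
Log2 fold changes of the tested members of 24 gene lists, R1881 plus 2 µM darolutamide minus R1881 alone, VCaP, 22 h; each point is a gene, coloured by its call, black bars are list medians and the grey band runs from the 10th to the 90th percentile of all 19266 genes. The androgen-induced, secretory and cholesterol lists lie to the left of 0 and the replication, mitosis, ribosome biogenesis and repair lists to the right.

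Androgen-induced genes fell together. This list and those below were chosen with earlier results of these data known, so that their counts are a description. Of 60 such genes, 54 were lower (30.8% of all genes) and 3 were higher (36.1%), 35 fell by more than 2-fold (6.35%), and the darolutamide libraries lay below all R1881 libraries in 52 (20.6%). The list median was -1.19. With R1881 against DMSO at 22 h, 55 of the 60 were higher (37.4% of all genes) and 4 lower (40.0%), so some members did not follow the list name here. The member with the largest change, ORM1, an acute-phase plasma protein gene with a near-identical neighbour, averaged 0.374 ± 0.140 CPM with darolutamide and 56.7 ± 2.57 with R1881. FKBP5 (chr6:35573585-35728583, minus strand, GENCODE 44 on GRCh38) encodes a co-chaperone of steroid receptors that androgen induces strongly. Its level was 188, 192, 182, 205 and 199.6 CPM in the 5 darolutamide libraries and 3031 to 3579 (median 3273) CPM in the R1881 libraries. The groups were far apart, a fall of 16.8-fold (log2 fold change -4.07 ± 0.047, adjusted p = 8.31e-55). KLK3 (chr19:50854915-50860764, plus strand) encodes prostate-specific antigen. It was at 35.0, 34.8, 35.3, 35.5 and 33.5 CPM against 177 to 204 (median 190.0) CPM, again without overlap (log2 fold change -2.46 ± 0.075, adjusted p = 4.81e-35). TMPRSS2 (chr21:41464300-41531116, minus strand), a membrane serine protease and the donor of the fusion promoter, was at 229.5, 215, 209.7, 195 and 224 CPM against 1794 to 1943 (median 1879.7) CPM (log2 fold change -3.13 ± 0.040). The neighbouring ERG gene (chr21:38380027-38661780, minus strand), read from the fusion in these cells, fell by 1.43 on the log2 scale, less than TMPRSS2 did.

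The other genes that the study placed at super-enhancers, large clusters of enhancers, fell to different extents. NCAPD3, a condensin II subunit, was at 389, 398, 385, 465 and 407 CPM against 4983 to 5682 (median 5528) CPM with R1881, a log2 fold change of -3.72 ± 0.046. KLK2, the kallikrein next to KLK3, kept a high level of 4183, 3978, 3759, 4082 and 3814 CPM against 8159 to 8742 (median 8532) CPM (-1.10 ± 0.035 on the log2 scale). IGF1R, the receptor of insulin-like growth factor 1, was at 382, 384, 383, 389 and 389 CPM against 926 to 972 (median 936) CPM. All of these libraries were separated, and the IGF1R change was -1.29 ± 0.029 (log2). ACPP, which encodes prostatic acid phosphatase, was at 5896, 6084, 5476, 5850.2 and 6527 CPM against 10238 to 12275 (median 10911) CPM, a log2 change of -0.89 ± 0.044. The smallest fall was that of PMEPA1, an inhibitor of TGF-beta signalling, with 1240.3, 1242, 1256, 1240.2 and 1245 CPM against 1453 to 1518 (median 1479) CPM (-0.25 ± 0.025 on the log2 scale, adjusted p = 4.38e-13). ACPT did not pass the filter on low counts.

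**Figure D2:**
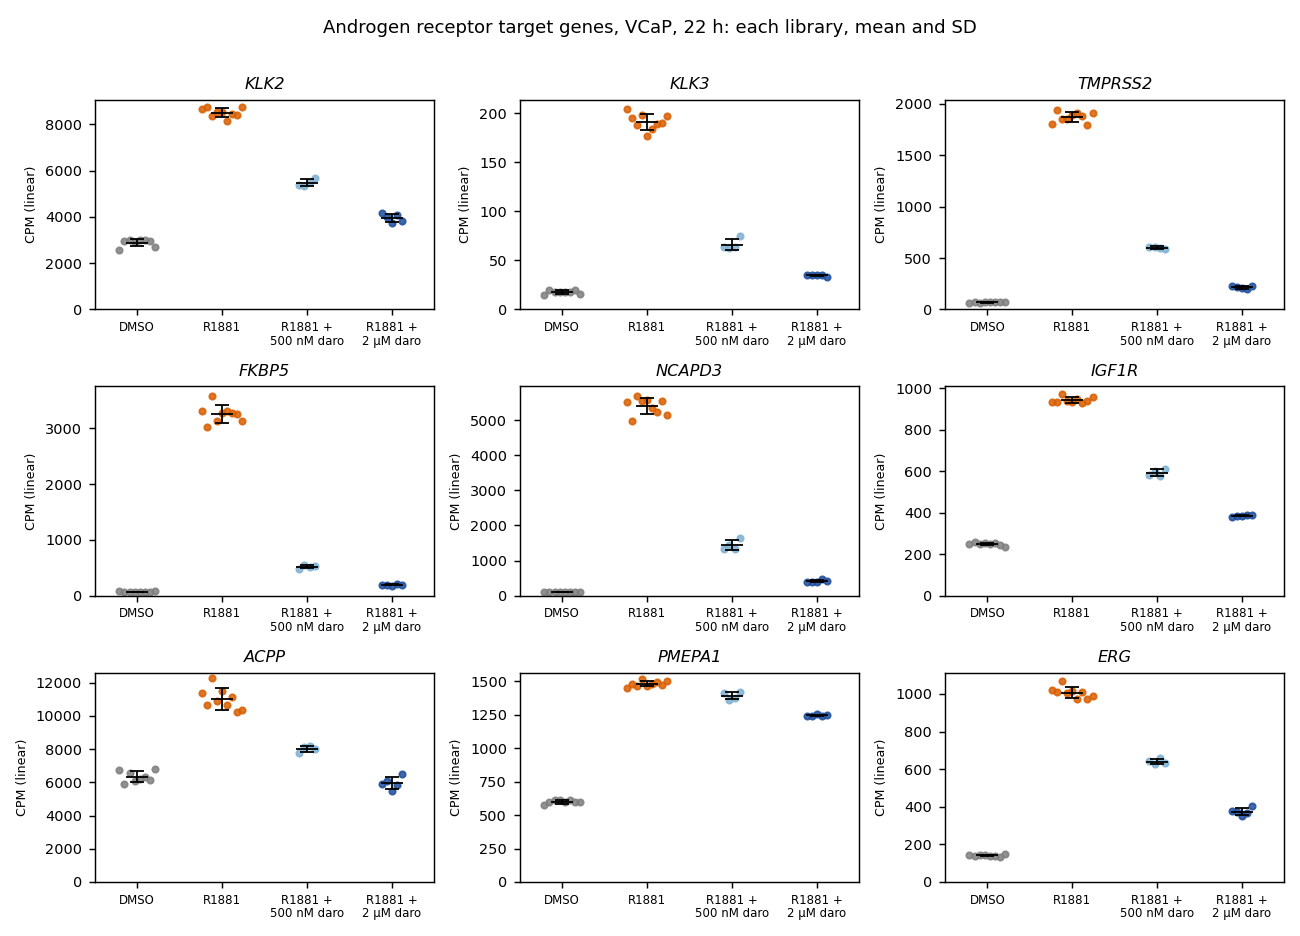
CPM on a linear scale of 9 androgen receptor target genes in each VCaP library at 22 h (DMSO n = 8, R1881 n = 9, R1881 plus 500 nM darolutamide n = 4, R1881 plus 2 µM darolutamide n = 5); points are libraries, black marks the mean and SD. With 2 µM darolutamide FKBP5 averaged 193 CPM against 3257 with R1881, while PMEPA1 averaged 1245 against 1482.

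The largest fall among genes with more than median expression was that of STEAP4, a metalloreductase, from between 877 and 1095 CPM (median 949) with R1881 to 37.8, 43.7, 41.2, 44.1 and 41.5 CPM with darolutamide (log2 fold change -4.53 ± 0.066, adjusted p = 5.23e-50). FKBP5, NCAPD3 and TMPRSS2 were among the 8 largest falls as well. SAT1, which acetylates polyamines for export, fell from between 289.8 and 339 CPM (median 310.3) to 31.5, 34.1, 29.3, 36.9 and 35.5 CPM (-3.21 ± 0.052). ERRFI1, a feedback inhibitor of the EGF receptor, fell from between 188 and 234 CPM (median 203) to 24.6, 23.4, 23.2, 27.2 and 26.1 CPM (-3.05 ± 0.060). The receptor gene LIFR, whose product binds leukemia inhibitory factor, fell from between 959 and 1224 CPM (median 1042) to 125, 125, 128, 135 and 138 CPM (-3.03 ± 0.065). NEFH, a neurofilament subunit, fell from between 67.8 and 77.3 CPM (median 72.4) to 10.6, 10.0, 9.95, 11.5 and 8.62 CPM (-2.84 ± 0.065). None of the 8 genes had an overlap between the groups, which was a condition of their choice.

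Among genes called, above median expression and without overlap, the largest rise was that of WNT2, a secreted WNT ligand, which was at 0.185 to 0.842 (median 0.574) CPM with R1881 and at 42.4, 41.4, 39.1, 44.7 and 42.4 CPM with darolutamide (log2 fold change 6.32 ± 0.098, adjusted p = 6.03e-49). With DMSO it was higher still, at 78.6 to 89.0 (median 83.9) CPM. IGFBP3, a binding protein that sequesters insulin-like growth factors, rose from between 1.26 and 2.71 CPM (median 2.14) to 42.3, 42.5, 40.7, 53.6 and 38.7 CPM (4.42 ± 0.090), against 241 to 282 (median 253) CPM with DMSO. PI15, a secreted peptidase inhibitor, rose from between 0.739 and 1.72 CPM (median 1.25) to 24.6, 25.5, 23.0, 27.6 and 24.4 CPM. The presynaptic scaffold gene PPFIA2 rose from between 10.4 and 13.4 CPM (median 11.0) to 177, 189, 173, 199 and 209.5 CPM, and the sodium bicarbonate cotransporter gene SLC4A4 from between 5.28 and 8.98 CPM (median 7.94) to 83.4, 87.1, 81.1, 95.03 and 95.2 CPM. These levels were thus between those of R1881 and of DMSO in all 5 genes. OPRK1 (the kappa opioid receptor), SYTL2 (a Rab27 effector in vesicle transport) and NAALAD2 (a peptidase related to the prostate membrane antigen) completed the 8 largest rises within these limits, with log2 fold changes of 3.38, 3.37 and 3.32.

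**Figure D3:**
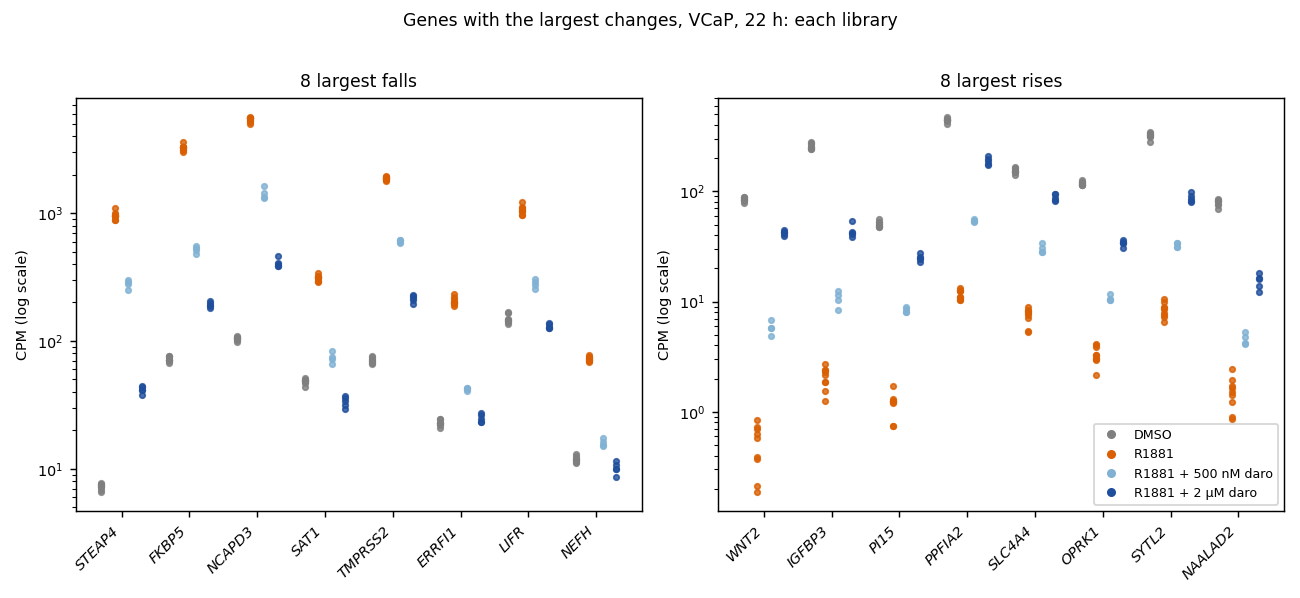
CPM on a log scale of the 8 genes with the largest falls and the 8 with the largest rises in each VCaP library at 22 h, among genes called, above median expression and without overlap between the groups compared; points are libraries. The 2 µM libraries lie between R1881 and DMSO in all 8 rising genes, for example WNT2 with means of 0.515, 42.0 and 84.4 CPM.

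Genes that androgen represses moved the other way. Of 17 tested members of a list of 18, 15 were higher (36.1% of all genes) and 2 lower (30.8%). More than 2-fold rises were seen in 14 (9.34%), and the list median was 2.42. The remaining gene, CXCR4, had at most 4 reads in a VCaP library. WNT2, IGFBP3 and OPRK1 belong to this list. FOLH1, which encodes prostate-specific membrane antigen, was at 78.7 ± 6.35 CPM (mean ± SD, n = 5) against 21.1 ± 2.56 CPM (n = 9), a log2 fold change of 1.90 ± 0.062. MET, the receptor of hepatocyte growth factor, was low in both groups, at 3.43 ± 0.566 against 0.178 ± 0.122 CPM (4.20 ± 0.23). UGT2B15 and UGT2B17, which encode enzymes that glucuronidate androgens, rose by 4.91 and 4.36 on the log2 scale, and since these genes are near-identical copies their counts are uncertain. The members that fell were LPAR3 and UGT2B11. With R1881 against DMSO at 22 h, 15 of the 17 tested members were lower (40.0% of all genes) and 2 higher (37.4%). Members of lists named here and below beyond the 3 with the smallest adjusted p of their list were chosen after their values were seen.

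Genes of DNA replication rose as a group. Of 50 genes 49 were higher (36.1% of all genes) and 0 lower, 32 rose by more than 2-fold (9.34%), and the darolutamide libraries lay above all R1881 libraries in 49 (22.9%). The list median was 1.13 against 0.058 over all genes. MCM4, a subunit of the replicative helicase, was at 504, 521, 476, 521 and 534 CPM with darolutamide and at 182 to 204 (median 187) CPM with R1881 (log2 fold change 1.43 ± 0.028, adjusted p = 8.82e-44). PCNA, the sliding clamp of DNA polymerases, was at 401, 421, 409, 407 and 431 CPM against 177 to 189 (median 186) CPM (1.16 ± 0.029). TYMS, the enzyme that makes thymidylate, was at 192, 196, 181, 197 and 197 CPM against 63.8 to 70.7 (median 67.8) CPM (1.52 ± 0.042). The groups were separated in all 3 genes, with the darolutamide libraries all well above the highest R1881 library. The transcription factor gene E2F1 was at 57.4 ± 4.24 CPM against 32.1 ± 2.23 CPM (0.84 ± 0.078). DBF4, the activator of the replication kinase CDC7, was the member that was not called, at 55.7 ± 4.49 against 53.2 ± 3.13 CPM (0.069 ± 0.061, adjusted p = 0.325).

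Promoters of these genes carry recognisable motifs. Windows from 250 bases before to 50 after the RefSeq start were searched on both strands for the E2F site TTTGGCGC or TTTCCCGC in the replication list, and for the cell cycle genes homology region TTTGAA in the mitosis list. The E2F letters were found in 19 of 42 replication promoters on hand (45.2%), against 406 of 11342 promoters of tested genes (3.58%) and 2.31% of all 27305 windows, and TTTGAA in 33 of 51 mitosis promoters (64.7%) against 9.41% and 15.4%. The androgen receptor dimer core ACANNNTGT was in 1 of 48 androgen-induced promoters (2.08%, against 2.66% of tested genes) and 0 of 11 androgen-repressed ones. The half-site AGAACA was in 4 of 48 induced promoters (8.33% against 8.81%). Motifs of other lists gave 40.9% against 1.65% (integrated stress response), 4.0% against 1.01% (cholesterol) and 28.6% against 7.25% (aryl hydrocarbon receptor). A match is a description of the window and not a bound site. Of the 3 genes with the smallest adjusted p in the replication and mitosis lists, the windows of those that hold the motif follow (LMNB1 had no match). They run 5′ to 3′ on the strand of the gene in GRCh38.p14, with the motif in capitals on whichever strand it matched. PCNA lies at chr20:5126573-5126872, minus strand, with its match starting at position -59 from the start site, and TYMS at chr18:657403-657702, plus strand, with its match at -39. KIF15 lies at chr3:44761544-44761843, plus strand, with a match at -35, and BUB1B at chr15:40160819-40161118, plus strand, with a match at -23.
PCNA: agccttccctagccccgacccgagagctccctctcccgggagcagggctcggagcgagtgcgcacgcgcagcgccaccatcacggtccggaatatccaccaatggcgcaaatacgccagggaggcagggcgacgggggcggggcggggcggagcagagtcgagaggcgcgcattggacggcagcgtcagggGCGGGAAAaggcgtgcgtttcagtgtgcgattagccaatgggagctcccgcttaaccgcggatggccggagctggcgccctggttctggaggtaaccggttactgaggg
TYMS: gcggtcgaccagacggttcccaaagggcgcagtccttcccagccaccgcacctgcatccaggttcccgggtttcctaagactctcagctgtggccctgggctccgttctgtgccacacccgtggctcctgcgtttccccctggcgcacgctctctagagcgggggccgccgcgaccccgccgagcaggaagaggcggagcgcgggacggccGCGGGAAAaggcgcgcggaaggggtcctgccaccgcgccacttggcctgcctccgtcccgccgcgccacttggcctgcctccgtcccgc
KIF15: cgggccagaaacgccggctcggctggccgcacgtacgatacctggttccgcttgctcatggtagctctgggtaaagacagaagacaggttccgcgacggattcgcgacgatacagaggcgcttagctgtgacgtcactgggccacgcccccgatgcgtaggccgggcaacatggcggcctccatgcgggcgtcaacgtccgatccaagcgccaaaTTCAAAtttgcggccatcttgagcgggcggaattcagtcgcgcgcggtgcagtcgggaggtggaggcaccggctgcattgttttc
BUB1B: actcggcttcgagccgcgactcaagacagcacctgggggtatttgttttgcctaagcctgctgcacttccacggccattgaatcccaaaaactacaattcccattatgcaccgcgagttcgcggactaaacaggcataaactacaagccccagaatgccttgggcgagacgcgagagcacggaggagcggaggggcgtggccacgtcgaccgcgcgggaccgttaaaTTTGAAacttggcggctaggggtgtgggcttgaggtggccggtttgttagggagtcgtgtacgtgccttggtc

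Genes of G2 and mitosis rose as well, 58 of 59 (36.1% of all genes) with 0 lower, 21 of them by more than 2-fold (9.34%), and with a median of 0.84. KIF15, a kinesin of the mitotic spindle, was at 77.6, 81.6, 73.4, 77.7 and 89.2 CPM against 24.1 to 29.7 (median 26.9) CPM (1.56 ± 0.054, adjusted p = 2.65e-32). BUB1B, a spindle checkpoint kinase, was at 84.7, 84.9, 79.9, 89.8 and 91.8 CPM against 33.4 to 40.7 (median 36.6) CPM (1.22 ± 0.050), and LMNB1, which encodes lamin B1, at 268, 278, 267, 298 and 289 CPM against 125 to 145 (median 134) CPM (1.07 ± 0.036). The darolutamide libraries lay above all R1881 libraries in 57 of the 59 genes (22.9% of all genes). MKI67, the proliferation marker Ki-67, was at 284 ± 21.5 against 154 ± 7.83 CPM (0.88 ± 0.047), and CCNB1, which encodes cyclin B1, at 149.8 ± 10.1 against 105.1 ± 4.004 CPM (0.51 ± 0.037). The gene not called was UBE2S. RNA levels do not measure cell division. The study reported that R1881-stimulated VCaP or LAPC4 cells proliferated less with darolutamide than with R1881 alone, and showed images from a later time.

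Of 21 regulators of the cell cycle 10 were higher (36.1% of all genes) and 9 lower (30.8%). CDK4, the kinase of the D cyclins, rose from between 115 and 132 CPM (median 122) to 285, 260.0, 257, 275 and 258 CPM (1.11 ± 0.037), and SKP2, the ubiquitin ligase subunit that targets p27, from between 33.2 and 40.4 CPM (median 37.6) to 82.7, 80.6, 80.4, 85.7 and 85.9 CPM (1.15 ± 0.044). CDKN1A, which encodes the inhibitor p21, fell from between 67.0 and 82.3 CPM (median 73.4) to 24.7, 21.4, 23.1, 24.8 and 19.0 CPM (-1.71 ± 0.067). CDKN1C, the gene of p57, fell by 1.44 and CCND1, the gene of cyclin D1, by 0.57 on the log2 scale. CDKN1B, the gene of p27, had a log2 fold change of -0.039 and was not called.

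Most genes of ribosome biogenesis and DNA repair rose too. Of 39 ribosome biogenesis genes 38 were higher (36.1% of all genes) and 1, NOP10, lower, with a median of 0.78, and 6 rose by more than 2-fold (9.34%). NOP56, a core protein of box C/D particles that guide ribosomal RNA methylation, was at 309, 309.8, 285, 317 and 306 CPM against 147 to 169.8 (median 155) CPM (0.96 ± 0.029). FBL, the methyltransferase fibrillarin, was at 187, 174, 166, 183 and 172 CPM against 77.1 to 91.7 (median 84.98) CPM (1.07 ± 0.035), and NOLC1, a nucleolar chaperone, changed by 0.83 ± 0.029. Of 49 repair genes 41 were higher (36.1% of all genes) and 5 lower (30.8%; median 0.60). UNG, which removes uracil from DNA, was at 153, 152, 139.8, 158 and 154 CPM against 55.3 to 63.7 (median 56.2) CPM (1.37 ± 0.042), and FANCD2, of the crosslink repair pathway, changed by 1.21 ± 0.046. BRCA1 and BRCA2, of homologous recombination, were higher by 1.12 and 1.81 (log2). LIG4, the ligase of non-homologous end joining, went the opposite way, from between 41.0 and 54.8 CPM (median 47.8) with R1881 to 8.82, 7.99, 7.19, 8.80 and 7.73 CPM with darolutamide (-2.54 ± 0.075).

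**Figure D4:**
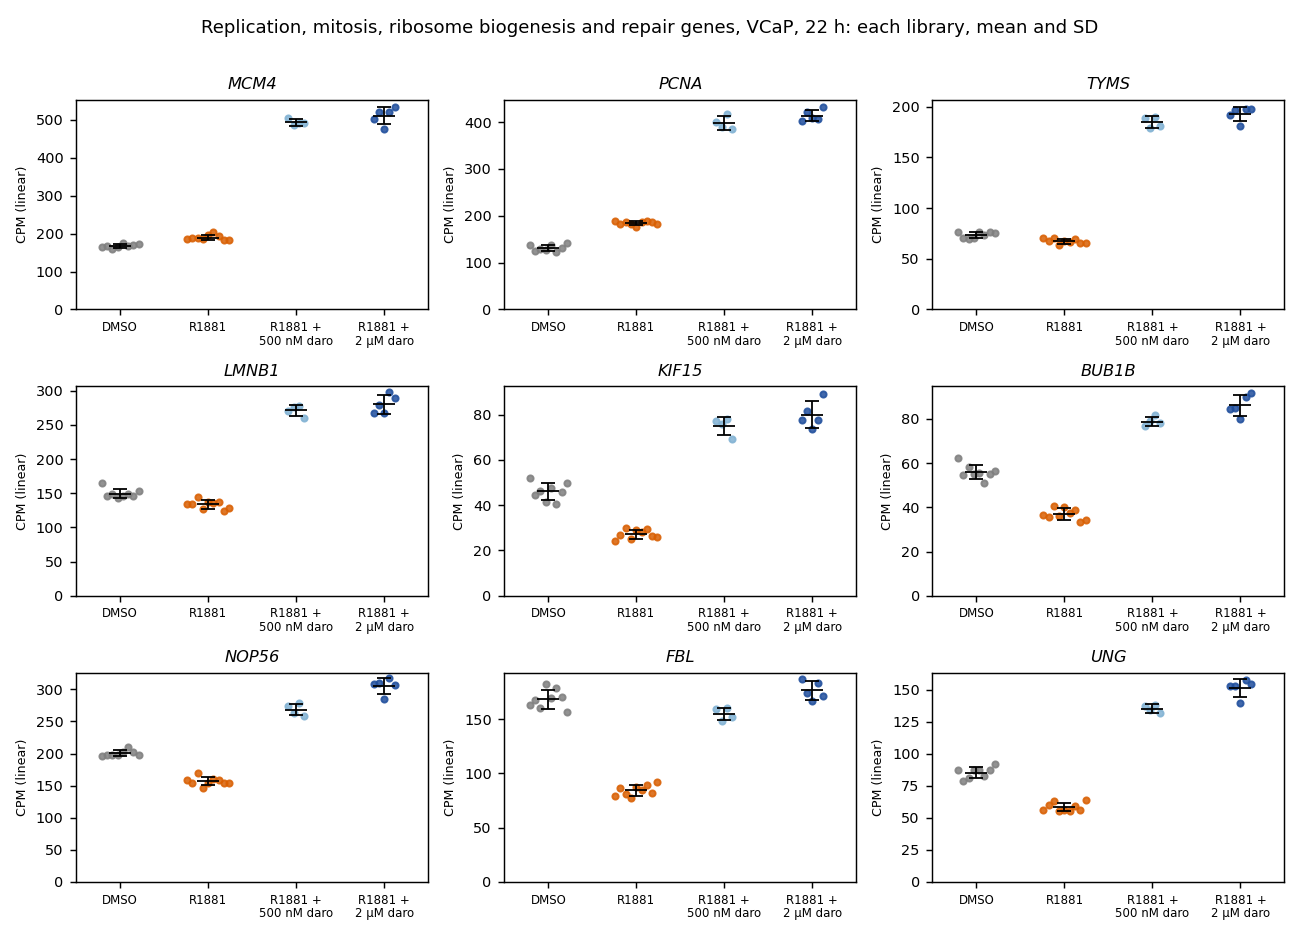
CPM on a linear scale of 9 genes of replication (MCM4, PCNA, TYMS), mitosis (LMNB1, KIF15, BUB1B), ribosome biogenesis (NOP56, FBL) and repair (UNG) in each VCaP library at 22 h (DMSO n = 8, R1881 n = 9, 500 nM n = 4, 2 µM n = 5); black marks the mean and SD. MCM4 averaged 168 CPM with DMSO, 189.8 with R1881, 494 with 500 nM and 511 with 2 µM darolutamide.

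The secretory pathway fell nearly throughout. Of 51 genes of protein folding and translocation in the endoplasmic reticulum 48 were lower (30.8% of all genes) and 1, DERL3, higher, 16 fell by more than 2-fold (6.35%), and the median was -0.88. Of 39 tested genes of the COPI and COPII coats and their cargo receptors 38 were lower (30.8% of all genes) and 0 higher (36.1%). The median was -0.83, and COPG2 was not called (-0.034). ERN1, the stress sensor IRE1, was at 25.6, 23.6, 26.0, 23.1 and 25.6 CPM against 103 to 115 (median 109) CPM (-2.13 ± 0.046, adjusted p = 3.40e-42). CREB3L4, a membrane-bound transcription factor of secretory cells, was at 167, 150.2, 143, 166 and 152 CPM against 423 to 444 (median 438) CPM (-1.49 ± 0.037), and its relative CREB3L2 changed by -1.30 ± 0.035. The chaperone gene HSPA5 (BiP) was at 1278 ± 42.2 against 2233 ± 119 CPM (-0.80 ± 0.036), and XBP1, the substrate of IRE1, at 279 ± 7.90 against 522 ± 19.4 CPM (-0.90 ± 0.036). SEC24D, a COPII cargo adaptor, was at 46.0, 47.7, 42.8, 47.3 and 51.1 CPM against 168 to 194 (median 179.6) CPM (-1.93 ± 0.046), and COPG1, a COPI coat subunit, changed by -1.48 ± 0.038. The ER stress element, CCAAT and CCACG with 9 bases between them, was found in the promoter windows of 6 of 45 members (13.3%), XBP1, HSPA5, CANX, CALR, HSP90B1 and CRELD2, against 0.12% of promoters of tested genes. All 6 fell, by 0.61 to 0.90 on the log2 scale.

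Of 31 genes of sugar donors and glycosylation 21 were lower (30.8% of all genes) and 5 higher (36.1%). GNE, which starts sialic acid synthesis, was at 34.9, 35.6, 33.7, 36.9 and 39.2 CPM against 161 to 198 (median 182) CPM (-2.31 ± 0.046). UAP1, which makes UDP-N-acetylglucosamine, was at 187, 195, 180.1, 192 and 206 CPM against 403 to 484 (median 439.9) CPM (-1.18 ± 0.051), and ST6GAL1, a sialyltransferase, changed by -1.57 ± 0.055. Of 31 genes of the integrated stress response and amino acid supply 15 were lower, a share of 48.4% against 30.8% of all genes. Another 10 were higher, a share of 32.3%, near the 36.1% of all genes. The serine synthesis gene PSAT1 rose from between 55.4 and 66.1 CPM (median 61.2) to 123, 131, 121, 137 and 133 CPM (1.09 ± 0.051), and MTHFD2, of mitochondrial folate metabolism, by 0.75. DDIT4, an inhibitor of mTORC1, fell from between 60.4 and 76.4 CPM (median 63.4) to 27.3, 25.5, 28.3, 23.6 and 22.7 CPM (-1.37 ± 0.068), and ATF4 itself changed by -0.26 ± 0.029.

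Of 31 tested genes of cholesterol synthesis and uptake 23 were lower (30.8% of all genes) and 0 higher, 7 by more than 2-fold (6.35%; median -0.56). IDI1, the isopentenyl diphosphate isomerase, was at 173, 176, 171, 184 and 182 CPM against 504 to 639.8 (median 569) CPM (-1.68 ± 0.053). INSIG1, which retains the SREBP complex in the endoplasmic reticulum, changed by -1.57 ± 0.057. SQLE, the squalene epoxidase, was not called (0.034 ± 0.038). In fatty acid synthesis and activation 16 of 28 genes were lower (30.8% of all genes) and 8 higher (36.1%). ACSL3, an acyl-CoA synthetase of lipid droplets, fell from between 4278 and 5385 CPM (median 4742) to 705, 725, 690.1, 773 and 794 CPM (-2.68 ± 0.054) and the desaturase gene FADS2 by 1.65 on the log2 scale, whereas FABP5, a fatty acid carrier, rose from between 2.61 and 4.29 CPM (median 3.78) to 23.7, 29.0, 25.8, 27.2 and 25.5 CPM (2.84 ± 0.069). Fatty acid synthase itself, FASN, averaged 619.5 ± 269.9 against 1696 ± 511 CPM, with a wide spread and overlapping groups (-1.45 ± 0.30). In fatty acid oxidation 16 of 28 genes were lower and 5 higher, against the same shares of all genes. The carnitine palmitoyltransferase gene CPT1A changed by -0.82 ± 0.036 and the dehydrogenase gene HADH by 0.90 ± 0.032.

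The counts of the signalling lists are to be read against 30.8% lower and 36.1% higher over all genes, and several shares are near these. Among them, 17 of 38 members of the insulin and PI3K pathway were lower and 12 higher. Beside IGF1R, PDPK1, the kinase that activates AKT, was lower at 71.2, 73.4, 71.8, 75.8 and 74.7 CPM against 132 to 143 (median 135) CPM (-0.89 ± 0.031), and MTOR changed by -0.78 ± 0.034. In polyamine metabolism 9 of 16 genes were lower and 4 higher. ODC1, the ornithine decarboxylase that starts polyamine synthesis, fell from between 2074 and 2349.6 CPM (median 2119) to 449, 434, 396, 453 and 458 CPM (-2.30 ± 0.041), and the spermine synthase gene SMS from between 1351 and 1534 CPM (median 1424) to 428, 448, 425, 468 and 459 CPM (-1.68 ± 0.041). Of 36 tested WNT pathway genes 16 were higher and 9 lower. The ligand gene WNT10B rose with WNT2, from between 0.699 and 1.30 CPM (median 0.795) to 5.80, 5.65, 6.87, 5.97 and 5.01 CPM (2.77 ± 0.13), while the receptor gene FZD5 fell from between 155 and 173 CPM (median 159) to 33.1, 36.0, 32.9, 31.8 and 35.4 CPM (-2.26 ± 0.054). Of 25 tested genes around ERK signalling 14 were lower and 5 higher, and EGFR (-0.86 ± 0.040) and its ligand gene HBEGF (-1.57 ± 0.081) were among the lower ones. In the TGF-beta and BMP list 12 of 30 genes were lower and 12 higher. LTBP1, which binds latent TGF-beta, rose from between 4.18 and 6.21 CPM (median 4.82) to 28.5, 28.8, 24.6, 28.7 and 29.3 CPM (2.50 ± 0.067) and SMAD3, a signal transducer, from between 5.64 and 7.90 CPM (median 7.06) to 29.8, 25.2, 26.7, 27.6 and 26.7 CPM (1.96 ± 0.056), while the BMP receptor gene BMPR1B fell (-1.41 ± 0.051). Of 8 tested targets of the aryl hydrocarbon receptor 7 were lower and 1 higher. TIPARP, a mono-ADP-ribosyltransferase that limits this receptor, was at 9.49, 8.23, 9.99, 9.89 and 9.75 CPM against 35.7 to 45.3 (median 42.6) CPM (-2.13 ± 0.074), the quinone reductase gene NQO1 changed by -1.18 ± 0.075 and CYP1A1, at 1.18 to 1.79 CPM with darolutamide, by -1.44 ± 0.16.

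Of 31 antigen presentation and interferon genes 11 were lower and 9 higher, shares of 35.5% and 29.0%, near the 30.8% and 36.1% of all genes. B2M, the light chain of MHC class I, fell from between 400.0 and 504 CPM (median 457) to 156, 166, 159, 173 and 173 CPM (-1.46 ± 0.044), and HLA-B from between 21.6 and 30.2 CPM (median 28.2) to 6.25, 7.36, 6.87, 9.32 and 6.28 CPM (-1.90 ± 0.10), although reads of the similar HLA genes can be assigned to one another. OAS3, an antiviral oligoadenylate synthetase, rose from between 21.1 and 25.7 CPM (median 23.6) to 59.9, 63.0, 57.0, 58.4 and 61.4 CPM (1.35 ± 0.050). Of 22 tested neuroendocrine and neuronal genes 11 were higher and 6 lower (36.1% and 30.8% of all genes). ENO2, the neuronal enolase, rose from between 14.9 and 19.8 CPM (median 17.7) to 42.4, 37.8, 36.9, 38.7 and 38.2 CPM (1.14 ± 0.049), while CPE, a prohormone carboxypeptidase, fell (-0.74 ± 0.045). Of the markers chosen for neuroendocrine cells CHGA (1.00 ± 0.096) and CHGB (0.28 ± 0.045) were higher, and SYP (-0.76 ± 0.051) and INSM1 (-0.82 ± 0.054) lower. Of 20 tested receptors and lineage factors 11 were lower and 4 higher (30.8% and 36.1% of all genes). SOX9 was at 49.2, 48.4, 53.9, 49.8 and 49.3 CPM against 131 to 144 (median 134) CPM (-1.43 ± 0.048), the coactivator gene NCOA1 changed by -0.43 ± 0.039 and the pioneer factor gene FOXA1 by -0.31 ± 0.031. NR3C1, which encodes the glucocorticoid receptor, was at 2.60 ± 0.187 against 2.62 ± 0.509 CPM and was not called. Of the 13 mitochondrially encoded genes 3 were higher and 1 lower, with 7 higher under a replicate block with the GC slope as covariate, and log2 fold changes lay between -0.30 for MT-ND5 and 0.26 for MT-CO3.

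The cells with darolutamide plus R1881 were next compared with the cells given DMSO only. This comparison shares the darolutamide libraries with the main one, so the values are given side by side. Of 19266 genes 5877 (30.5%) were higher and 5488 (28.5%) lower with darolutamide plus R1881 than with DMSO, 11365 in all (59.0%). The androgen-induced list kept a median of 0.64, with 41 of 60 genes above DMSO and 10 below, against a median of 1.74 for R1881 over DMSO. In the latter comparison 14910 genes were called (77.4%), 37.4% of all genes higher and 40.0% lower with R1881. FKBP5 was at 67.3 to 76.2 (median 71.3) CPM with DMSO and TMPRSS2 at 66.1 to 76.3 (median 69.9) CPM, so that both stayed above DMSO in every darolutamide library. ACPP, at 5891 to 6833 (median 6248) CPM with DMSO, did not differ from it detectably (-0.089 ± 0.043, adjusted p = 0.0710), and its groups overlapped. The androgen-repressed list stayed below DMSO, with 14 of 17 genes lower and a median of -1.20. Replication genes were in another position. R1881 alone moved their median by 0.24 from DMSO, with 31 of 50 higher and 9 lower, whereas darolutamide plus R1881 was higher than DMSO in 50 of 50, with a median of 1.40. MCM4 was at 159 to 174 (median 168) CPM with DMSO, PCNA at 122 to 142 (median 131) CPM and TYMS at 69.8 to 76.6 (median 74.4) CPM, all below the lowest darolutamide library. Mitosis genes were lower with R1881 than with DMSO in 48 of 59 (median -0.43) and higher with darolutamide plus R1881 than with DMSO in 50 of 59 (median 0.40). For ribosome biogenesis the medians were -0.38 and 0.39. Endoplasmic reticulum folding genes were above DMSO in 43 of 51 (median 0.51), coat genes in 32 of 39 (0.37) and cholesterol genes in 25 of 31 (0.91).

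**Figure D5:**
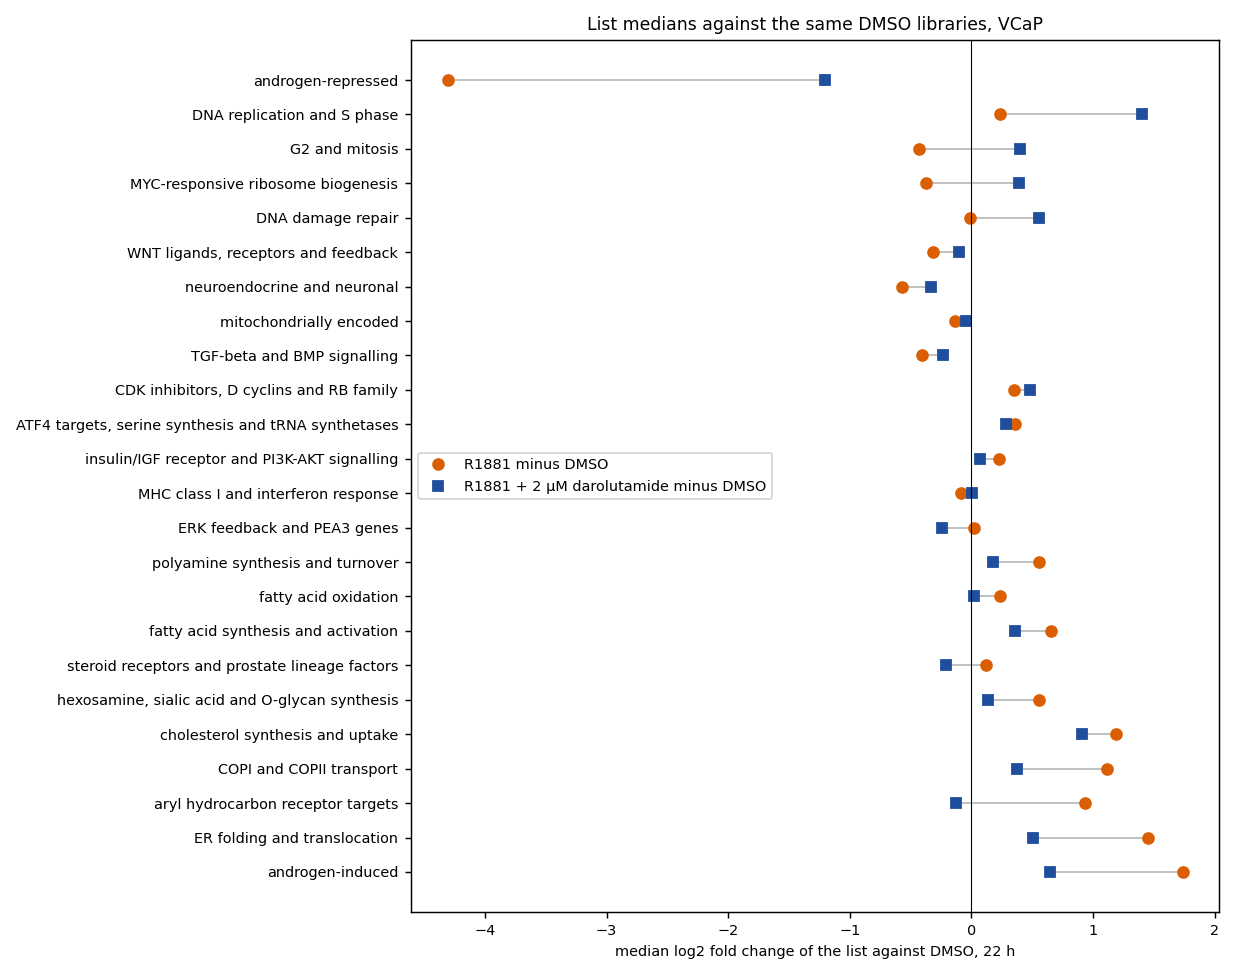
Median log2 fold change of each of 24 gene lists against the same 8 DMSO libraries, for R1881 alone (circles) and for R1881 plus 2 µM darolutamide (squares), VCaP, 22 h. The androgen-induced square lies at 0.64 and its circle at 1.74, while the replication list is at 1.40 with darolutamide against 0.24 with R1881 alone.

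Genes beyond both controls were ranked by the smaller of their changes against R1881 and DMSO. CDCA7, a MYC and E2F target, led those above both, with 64.5, 67.0, 60.2, 67.2 and 67.4 CPM against 17.3 to 22.0 (median 18.3) CPM with R1881 and 18.1 to 23.8 (median 22.2) CPM with DMSO. EXO1, an exonuclease of mismatch repair and recombination, was at 50.1, 52.1, 47.7, 52.0 and 54.9 CPM against 15.6 to 19.2 (median 17.9) and 16.04 to 18.4 (median 17.1) CPM. DTL, an adaptor of the ligase that degrades CDT1, had log2 fold changes of 1.44 against R1881 and 1.77 against DMSO, and FAM111B, a serine protease, of 1.43 and 1.65. Below both controls lay GATS, with 12.3, 12.1, 11.5, 12.5 and 10.4 CPM against 28.3 to 33.9 (median 31.3) and 22.3 to 28.5 (median 25.6) CPM. LITAF, a lysosomal membrane protein, was at 10.2, 10.2, 9.63, 10.6 and 9.70 CPM against 33.8 to 41.8 (median 36.9) and 19.1 to 21.7 (median 20.1) CPM. HIST1H2AC, a histone H2A gene, had log2 fold changes of -1.09 and -1.63, and FBXO32, a ubiquitin ligase subunit of muscle atrophy, of -0.99 and -1.26. These 8 genes were chosen on these values.

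The dose mattered for the androgen-regulated genes. Between 2 µM and 500 nM darolutamide 3889 genes (20.2%) were called, 2011 higher (10.4%) and 1878 lower (9.75%) at 2 µM. With the GC slope of each library as a covariate, an alternative setting, 5971 genes were called. Of the androgen-induced list 49 of 60 genes were lower and 1 higher at 2 µM (median -0.49), and of the androgen-repressed list 15 of 17 were higher and 0 lower (median 1.20). FKBP5 was at 476, 548, 519 and 538 CPM in the 4 libraries with 500 nM, above all of the 2 µM libraries, a difference of -1.43 (95% interval -1.52 to -1.33) on the log2 scale. For WNT2 the low dose gave 6.78, 5.73, 5.70 and 4.82 CPM, below all 2 µM libraries, and the difference was 2.86 (95% interval 2.68 to 3.05). The secretory lists were lower at 2 µM too, in 39 of 51 and in 31 of 39 genes. Replication genes were at like levels at both doses. Of 50 genes 1, PRIM1, was called between the doses, and the median difference was 0.018. MCM4 was at 506, 486, 491 and 492 CPM with 500 nM, within the range of 2 µM, and the difference was 0.049 (95% interval -0.020 to 0.12). PCNA differed by 0.056 (95% interval -0.016 to 0.13) and TYMS by 0.060 (95% interval -0.043 to 0.16). Of 59 mitosis genes 1, BUB3, was called between the doses (median 0.046), while of 39 ribosome biogenesis genes 22 were higher at 2 µM (median 0.18).

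Effects at 8 and 22 h were compared by their difference. Effects are signed here, so a lower effect is a more negative or less positive log2 fold change and not a weaker one. The effect of 2 µM darolutamide differed between the times in 9353 genes (48.5%), being higher at 22 h in 5275 (27.4%) and lower in 4078 (21.2%). The androgen-induced median went from -0.44 at 8 h to -1.19 at 22 h, with a lower effect at 22 h in 45 of 60 genes and a higher one in 9. FKBP5 had already fallen by 2.62 ± 0.043 at 8 h, so that 22 h added -1.46 ± 0.054 (adjusted p = 6.90e-30). KLK3 went from -0.38 ± 0.070 to -2.46 ± 0.075. ACPP and PMEPA1 had effects of the opposite sign at 8 h, 0.19 ± 0.041 and 0.38 ± 0.024. R1881 itself had acted differently by then. At 8 h KLK3 averaged 38.7 CPM with R1881 and 16.8 with DMSO, against 191 and 17.6 at 22 h. ACPP was lower with R1881 than with DMSO at 8 h (4424 and 5889 CPM), and PMEPA1 was higher (1032 and 642 CPM). The part of the R1881 response in these 8 h effects was not tested. The replication list was near 0 at 8 h, with a median of 0.12, and all 50 genes had a higher effect at 22 h. The mitosis list had a median of -0.076 at 8 h and likewise a higher effect at 22 h in 59 of 59 genes. For protein folding in the endoplasmic reticulum much of the fall was present at 8 h, with a median of -0.60.

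LAPC4, an established prostate cancer line in which ERG had 0 reads, was compared in the same way. The effect differed between the cell lines in 10175 genes (52.8%), being higher in VCaP in 4531 (23.5%) and lower in 5644 (29.3%), and genes that passed the filter in VCaP can be low in LAPC4. The median effect for the androgen-induced list was -0.35 in LAPC4 and -1.19 in VCaP. The signed effect was lower in VCaP, that is more negative or less positive, in 38 of 60 genes and higher in 12. The LAPC4 median was -0.14 for the replication list, with a higher effect in VCaP in 49 of 50. For endoplasmic reticulum folding it was 0.019, with a lower (more negative) effect in VCaP in 49 of 51. The study reported fewer genes regulated by R1881 in LAPC4 than in VCaP. The R1881 response of LAPC4 itself was not tested here, so its part in these differences is not known. FKBP5 fell by 1.33 ± 0.047 in LAPC4, a difference of -2.81 ± 0.064 (log2). The difference was largest for NCAPD3 among the super-enhancer genes, at -3.48 ± 0.053. KLK2 and PMEPA1 went the other way, with a stronger fall in LAPC4 (-2.28 ± 0.089 and -1.02 ± 0.030). ACPP, which fell in VCaP, had a positive effect in LAPC4 (0.45 ± 0.051). ERG could not be compared, with 0 reads in LAPC4.

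Library properties moved with the groups. The compared libraries held 15798498 to 24973835 reads, 22551000 on average with darolutamide and 19426000 with R1881 (exact permutation test, two-sided, p = 0.0170 for 5 against 9 libraries). Mitochondrially encoded genes took 1.02 to 1.18% of reads with darolutamide and 0.925 to 1.06% with R1881 (exact permutation p = 0.00200), and the 10 most abundant genes took 4.78% and 5.53% on average (exact permutation p = 0.0005, the smallest that these groups allow). The slope of log2 CPM on GC content did not differ detectably (difference -0.0011, exact permutation p = 0.862). The p-values are among 10 measures, and adjusted over them they were 0.0212, 0.00400, 0.00125 and 0.862. The part of these properties in the changes of single genes was not tested.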

How the data were processed

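The authors deposited a table of raw read counts per gene, one column per library. Per the labels and the study's methods, poly-A RNA was made into stranded libraries, read as 50-cycle single-end reads, aligned to GRCh38 with STAR and counted with featureCounts, and the submitters' processing notes add bcl2fastq 2.17. The strand setting and the annotation release are not given in the sources used here. Sums over near-identical copies (HLA, UGT2B, histone and mitochondrial genes, KLK2 and KLK3) are uncertain. Groups came from the labels. The 14 compared libraries held 15798498 to 24973835 reads, which sets the precision of low genes. Counts were filtered (10 reads in 4 VCaP libraries), TMM-normalised and fitted with edgeR 4.0.16 (R 4.3.3, limma 3.58.1) over the 8 VCaP groups without covariates, and the time and cell line contrasts were interaction contrasts. No unmapped column was used. Adjusted p-values are Benjamini-Hochberg over all genes. They weigh differences between groups against the spread of libraries within groups, over all 55 VCaP libraries or, for the cell line contrast, all 112. The script was tested on simulated counts. Named genes were the super-enhancer genes of the study, the 8 largest falls and rises, 3 genes with the smallest adjusted p per list, genes beyond both controls and genes that only R1881 moved, and some of them are not reported here. Members and lists were chosen with earlier results of these data known. Library properties were compared by exact permutation over 2002 assignments. Alternatives were DESeq2 1.42.0, RLE factors, other filters, only the compared groups, a replicate block, other control replicates, single libraries left out and a GC covariate, for which 84.4% of genes had a value. Libraries of one group differed by more than sampling noise, so none was counted as a duplicate. The replicate numbers did not pair the libraries. Among the controls some replicates are numbered past 5, unlike those with darolutamide, while the methods of the study state 5 replicates per condition, and whether these came from another experiment is not given in the sources used here. With control replicates 1 to 5 alone 12295 genes were called, and with the later ones alone 11864. Promoters were matched by symbol to the RefSeq table of GRCh38.p14 for 11342 tested genes, and GENCODE 44 gave coordinates.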

Additional observations from a re-analysis of the deposited data

Results flagged for a closer look

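Single libraries stood apart from the rest of their group in 14 of 224 groups of values tested, where chance flags about 1 in 20 groups, or 11.2 here. Among the 5 darolutamide libraries these were NCAPD3 in replicate 4 at 465 CPM (the others 385 to 407), IGFBP3 in replicate 4 at 53.6 CPM (the others 38.7 to 42.5) and SOX9 in replicate 3 at 53.9 CPM (the others 48.4 to 49.8). The same was found for LTBP1 in replicate 3 at 24.6 CPM (the others 28.5 to 29.3), TIPARP in replicate 2 at 8.23 CPM (the others 9.49 to 9.99) and UNG in replicate 3 at 139.8 CPM (the others 152 to 158). Among the 9 R1881 libraries they were SOX9 in replicate 3 at 144 CPM (the others 131 to 137), CREB3L4 in replicate 6 at 423 CPM (the others 435 to 444), WNT10B in replicate 7 at 1.30 CPM (the others 0.699 to 0.996) and CCND1 in replicate 1 at 446 CPM (the others 456 to 465.6). Further such values were MT-ND3 in replicate 5 at 168 CPM (the others 129.6 to 142), CDCA7 in replicate 5 at 22.0 CPM (the others 17.3 to 18.9), BMF in replicate 3 at 12.2 CPM (the others 15.7 to 18.0) and the summed endothelial markers in replicate 3 at 2.02 CPM (the others 2.72 to 3.32).

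The effect of darolutamide differed between 22 and 8 h in 9353 genes and between VCaP and LAPC4 in 10175 genes, by edgeR's test of the difference itself. In the genes named at super-enhancers, the effect at 22 h minus that at 8 h was -0.88 for KLK2, -2.08 for KLK3, -1.86 for TMPRSS2, -1.46 for FKBP5 and -1.07 for ACPP on the log2 scale. It was -0.63 for PMEPA1, -0.57 for IGF1R, -1.46 for NCAPD3 and -0.76 for ERG, ERG being the check of the cell line. The effect in VCaP minus that in LAPC4 was 1.11 for KLK2, -0.97 for KLK3, -2.73 for TMPRSS2 and -2.81 for FKBP5. For the remaining genes it was -1.40 for ACPP, 0.70 for PMEPA1, -1.08 for IGF1R and -3.48 for NCAPD3, so that KLK2 and PMEPA1 had a positive difference, unlike the other 6 genes.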

How the results depend on the processing

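Counts of calls kept within 1.5 times of the reported value under every planned setting except for dose, where 3889 calls became 5971 with the GC slope of each library as a covariate and 6144 with the replicate block and that covariate; the cause was not tested. The main count of 12896 was 12464 to 12820 when each library was left out in turn and 11085 to 13978 under the other settings, with 12767 by DESeq2. With a replicate block over shared numbers the counts were 11085 for the main comparison, 2866 past 2-fold, 3673 for dose, 8061 for time, 9190 for cell line, 8896 against DMSO and 14773 for R1881 against DMSO. The numbers did not pair the libraries: correlations of same-numbered deviations were -0.04, 0.0055, -0.41, -0.09 and 0.16, and 0 of 5 libraries matched best with their own number. Of 102 named genes 99 kept direction and call in all 24 settings. The exceptions were COL1A1, DPP4 and VWF. COL1A1 (main value -0.08, not called) went to 0.12 under the replicate block, to 0.085 when replicates 1 to 5 were the sole controls, and to 0.10 under the block plus GC covariate. It ran from -0.17 to 0.055 when a single library was omitted. DPP4 (0.05, not called) went to -0.012 under the block and to -0.018 for the same 5 controls, and VWF lost its call in 3 settings, including without darolutamide replicate 4. Of 1344 counts of list members 1339 stayed within 1.5 times. The exceptions were the higher cholesterol (1 in place of 0) and mitochondrially encoded genes (7 in place of 3) under the replicate block with GC covariate, and the endothelial marker VWF in the 3 settings where its call was lost. The difference in GC slope, -0.0011, ranged from -0.0051 to 0.0024 with single libraries left out, a setting chosen after seeing the data. Depth limits the low genes, and the reads carry no molecular identifiers, so that duplicates are counted.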

Other observations

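For some genes that R1881 moved, the addition of darolutamide did not pass the test. BMF, a BH3-only inducer of apoptosis, was at 17.5 ± 1.14 CPM (SD, n = 5) with darolutamide, 16.2 ± 1.71 (n = 9) with R1881 and 46.8 ± 1.93 (n = 8) with DMSO, with a log2 fold change of -1.52 ± 0.056 for R1881 against DMSO and 0.11 ± 0.066 for darolutamide against R1881. ANXA3, an annexin, was likewise low, at 13.7 ± 1.38 CPM (SD, n = 5) with darolutamide, 14.7 ± 1.28 (n = 9) with R1881 and 41.7 ± 1.75 (n = 8) with DMSO. Of the genes that R1881 raised, ELOVL6, a fatty acid elongase, was at 62.2 ± 3.08 CPM (SD, n = 5) with darolutamide, 63.7 ± 4.47 (n = 9) with R1881 and 22.4 ± 2.19 (n = 8) with DMSO, and DPP4, a serine dipeptidase of the cell surface, was at 64.2 ± 4.39 CPM (SD, n = 5) with darolutamide, 62.2 ± 5.81 (n = 9) with R1881 and 23.5 ± 1.19 (n = 8) with DMSO. These 4 genes were chosen because R1881 moved them and darolutamide did not pass the test, so that their values are a description, and adjusted p-values of edgeR's quasi-likelihood test were 0.138, 0.266, 0.631 and 0.452.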
